A study of Mus musculus with 4 samples.

Results

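The cytosolic ribosomal protein genes encode the protein parts of the ribosomes that translate messenger RNA outside mitochondria. They were taken by symbol from the protein-coding genes of a RefSeq table (Rpl or Rps followed by a number and at most a letter and a further number, with Rpsa, Rplp0, Rplp1 and Rplp2, and without the Rps6k kinase genes). This gave 84 of 21774 protein-coding genes on the assembled chromosomes, 32 named for the small subunit (Rps and Rpsa) and 52 for the large one (Rpl). The symbol rule also takes in 7 genes that carry a letter l after the number (Rpl3l, Rpl7l1, Rpl10l, Rpl22l1, Rpl32l, Rpl39l and Rps27l), some of which are paralogs with restricted expression, such as Rpl3l in heart and skeletal muscle and Rpl10l in testis. The genes are short, from 592 to 11774 bp with a median of 3179 bp, against a median of 17220 bp for all protein-coding genes.

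Linker histone H1 was mapped by chromatin immunoprecipitation and sequencing in mouse embryonic stem cells, strain 129S4/SvJae, that carry an overexpressed H1foo-GFP. Of 4 libraries, 2 used an H1foo antibody (rabbit polyclonal, prepared in-house) and 2 used AE4, a mouse monoclonal that stands for the somatic H1 proteins of the series title. All libraries came from cells with H1foo-GFP, so neither list describes cells without it; the sources used here do not state which promoter drives it, whether the line is a single clone, or whether the libraries came from separate cultures. Each antibody has 1 deposited peak list, 97825 peaks for H1foo and 47493 for AE4, without values per library. No replicate error and no test between libraries could therefore be had. Read depth is unknown, and a gene without a peak was not shown to lack the protein. Peak lists hold no expression levels, so the stem cell label could not be checked against marker genes. Each peak has a score, the authors' value from the peak caller, which is used here to rank peaks within a list.

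Ribosomal protein genes are among the most heavily transcribed genes of growing cells. Their promoters are typically rich in CpG, and many of their transcripts begin within a run of pyrimidines, the terminal oligopyrimidine (TOP) tract, through which their translation is tied to growth signals. Linker histones bind where DNA enters and leaves the nucleosome and help to pack chromatin, and active promoters are generally poor in somatic H1. H1foo is the linker histone of the oocyte and the early embryo.

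Start sites with their sequence were taken from a RefSeq table of promoter windows, which run from 250 bases before the start site to 50 after it (build GRCm38.p6, the coordinates of mm10). The table matched 64 of the 84 genes. The other 20 included Rpl3, Rpl7, Rpl8, Rpl17, Rpl21, Rpl23a, Rpl29, Rpl30, Rpl32, Rpl36, Rplp1, Rps14, Rps20, Rps27a and Rps29. H1foo peaks overlapped the window of 4 of the 64 genes (6.25%), Rpl10a, Rpl27, Rpl3l and Rps13, where 14.4% of 17492 protein-coding genes had one. AE4 peaks overlapped the window of Rpl3l alone (1.56%), against 2.66% of protein-coding genes. These 4 promoters are shown because they are the ones under a peak. Each line runs 5′ to 3′ on the gene's strand from 180 bases before the start site to 20 from the start site on, and capitals mark the bases that lie under the H1foo peak.
Rpl10a: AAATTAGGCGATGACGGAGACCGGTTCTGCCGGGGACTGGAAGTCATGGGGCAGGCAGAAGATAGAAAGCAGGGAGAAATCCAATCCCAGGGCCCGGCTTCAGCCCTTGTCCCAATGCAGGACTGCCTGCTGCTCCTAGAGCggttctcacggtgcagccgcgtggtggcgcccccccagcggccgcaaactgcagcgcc
Rpl27: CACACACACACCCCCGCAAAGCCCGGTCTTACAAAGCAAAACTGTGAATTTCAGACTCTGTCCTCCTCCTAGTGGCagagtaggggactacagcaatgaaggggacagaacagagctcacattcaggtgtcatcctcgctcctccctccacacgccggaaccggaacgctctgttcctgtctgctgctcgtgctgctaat
Rps13: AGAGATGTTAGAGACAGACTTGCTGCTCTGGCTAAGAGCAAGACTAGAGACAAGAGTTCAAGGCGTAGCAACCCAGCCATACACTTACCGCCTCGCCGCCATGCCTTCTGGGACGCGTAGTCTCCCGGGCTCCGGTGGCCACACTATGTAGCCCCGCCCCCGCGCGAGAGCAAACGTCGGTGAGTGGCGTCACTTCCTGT
Rpl3l: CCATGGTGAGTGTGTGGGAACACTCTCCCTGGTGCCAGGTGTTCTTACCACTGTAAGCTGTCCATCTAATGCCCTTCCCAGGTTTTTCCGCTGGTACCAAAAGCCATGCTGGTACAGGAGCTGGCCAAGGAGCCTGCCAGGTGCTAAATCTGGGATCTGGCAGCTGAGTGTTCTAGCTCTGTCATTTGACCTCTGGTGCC
The stretches are chr17:28328291-28328490 (plus strand), chr11:101442065-101442264 (plus), chr7:116334171-116334370 (minus) and chr17:24727646-24727845 (plus). At Rpl10a the peak ended 39 bp before the gene and covered 142 of the 200 bases, and at Rpl27 it ended 105 bp before the gene and covered 76. At Rps13 and Rpl3l it covered all 200 and ran across the start site.

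Promoters without a peak near them are shown by 3 genes that had no peak of either list within 5 kb, chosen, after their values were seen, for their motifs and pyrimidine runs. Here capitals mark matches to the motifs counted below and, where it is at least 5 bases long, the unbroken run of C and T that contains the first transcribed base.
Rpl15: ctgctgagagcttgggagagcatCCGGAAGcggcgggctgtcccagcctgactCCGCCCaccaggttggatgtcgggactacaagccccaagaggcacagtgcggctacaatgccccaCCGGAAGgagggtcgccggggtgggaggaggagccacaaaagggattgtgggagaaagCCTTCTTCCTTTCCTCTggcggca
Rpl31: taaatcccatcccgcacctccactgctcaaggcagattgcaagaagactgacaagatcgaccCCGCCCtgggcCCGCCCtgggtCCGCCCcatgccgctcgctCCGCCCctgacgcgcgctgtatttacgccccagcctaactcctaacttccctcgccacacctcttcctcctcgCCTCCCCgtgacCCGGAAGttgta
Rps27: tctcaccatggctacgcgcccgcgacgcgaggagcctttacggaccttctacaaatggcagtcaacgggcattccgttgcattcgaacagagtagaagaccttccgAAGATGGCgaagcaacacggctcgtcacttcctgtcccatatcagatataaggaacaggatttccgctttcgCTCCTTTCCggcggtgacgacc
These are chr14:18270967-18271166 (minus), chr1:39367671-39367870 (plus) and chr3:90213629-90213828 (minus). Their nearest H1foo peaks lay 7156, 7869 and 5590 bp from the gene and their nearest AE4 peaks 7645, 13093 and 23188 bp. The pyrimidine run was 17 bases long at Rpl15, 7 at Rpl31 and 9 at Rps27.

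Ribosomal protein promoters differed in composition from the table as a whole. Their 300-base windows had a median of 21 CpG (range 2 to 35), against 13 over 17492 protein-coding genes, at a similar median GC content of 57.0% and 56.3%. Motifs were searched on both strands of the window. The ETS core CCGGAAG was present in 25 of 64 windows (39.1%, against 11.9% of all), the Sp core GGGCGG in 38 (59.4% against 46.3%), the YY1 core AANATGGC in 13 (20.3% against 6.65%) and the TATA box TATAAA in 8 (12.5% against 13.3%). The first transcribed base was C in 22 windows (34.4% against 13.7%), and the pyrimidine run that holds it had 5 or more bases in 19 (29.7% against 8.60%). Rpl3l stood at the low end with 2 CpG and no match to any of these motifs, and it was the member whose promoter lay under peaks of both lists. Other members, such as Rpl4, Rpl5 and Rpl9, also had no match but no peak over the window. Rpl32l, with 3 CpG, had no peak there either. A match is a run of letters and not a site shown to be bound.

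Within gene bodies, ribosomal protein genes carried few peaks of either list. H1foo peaks overlapped 21 of 84 genes (25.0%), where 56.1% of all protein-coding genes and 46.3% of the 6295 genes of 1 to 10 kb had one. AE4 peaks overlapped 3 genes (3.57%), Rplp0, Rps2 and Rpl3l, where 42.7% of all genes and 26.3% of those of 1 to 10 kb had one. Among the 3411 genes of 1 to 5 kb, whose median length of 2882 bp is closer to that of the ribosomal protein genes, the shares were 38.2% for H1foo and 17.4% for AE4. All 3 genes with AE4 also had H1foo, so 18 genes had H1foo alone and 63 had neither. Of the 3411 genes of 1 to 5 kb, 762 had H1foo alone and 2055 neither. Of 21774 protein-coding genes, 3782 and 8701 did. The share with H1foo alone was thus near that of genes of 1 to 5 kb. With 7.00 times as many genes under H1foo as under AE4, the ratio was higher than the 2.19 of genes of 1 to 5 kb, but it rests on 3 AE4 genes and has no test.

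**Figure D1:**
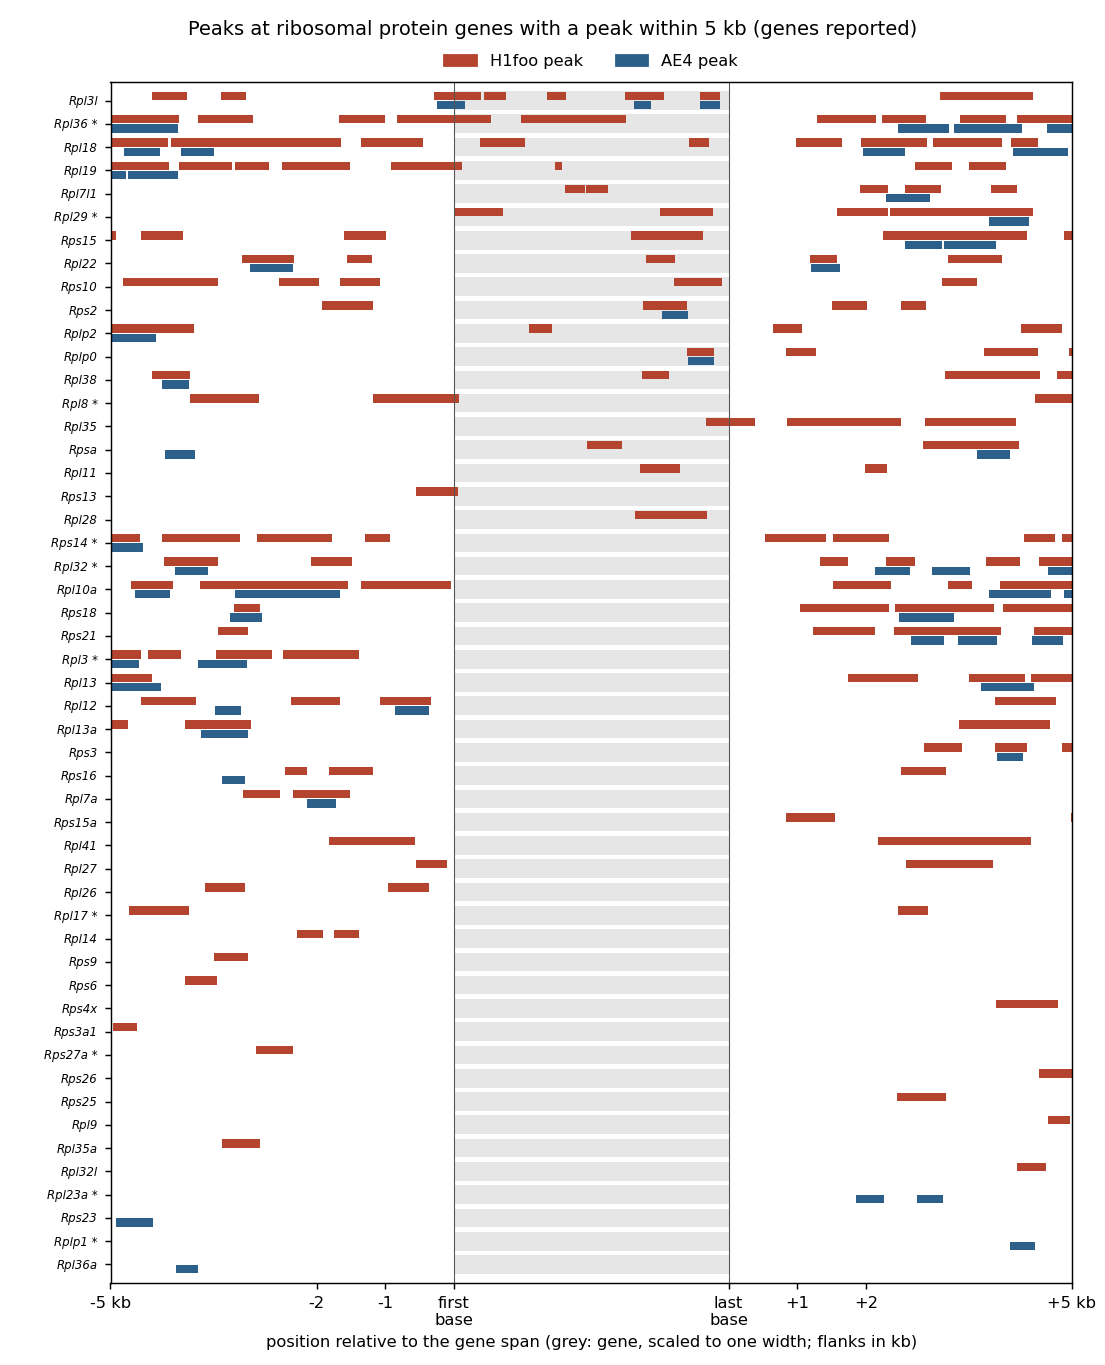
Peaks of H1foo (red) and AE4 (blue) at 51 of the 56 ribosomal protein genes with a peak of either list within 5 kb. The vertical axis lists genes, those marked * in left-to-right order of the genome because no strand was matched and all others in the direction of transcription; the horizontal axis gives kb outside the gene, with the gene itself (grey) scaled to 1 width. AE4 peaks enter the grey field at Rpl3l, Rps2 and Rplp0, while most AE4 peaks lie more than 2 kb outside.

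At a larger distance the gap to other genes changed. For H1foo the share was level with that of genes of 1 to 5 kb within 2 kb. Within 5 kb the H1foo share was above theirs and near that of all protein-coding genes. For AE4 the gap remained within 2 kb. Within 5 kb AE4 was near the share of genes of similar length and below the others. With 2 kb added on each side, 38 genes had an H1foo peak (45.2%), against 59.4% of all protein-coding genes, 52.3% of those of 1 to 10 kb and 45.4% of those of 1 to 5 kb. With 5 kb added, 52 genes did (61.9%), against 62.6%, 57.7% and 51.6%. AE4 reached 9 genes within 2 kb (10.7%, against 46.1% of all genes, 33.3% and 25.6%) and 30 within 5 kb (35.7%, against 51.0%, 42.5% and 36.4%). The nearest H1foo peak was inside at 21 genes, within 1 kb at 9, at 1 to 2 kb at 8, at 2 to 5 kb at 14 and farther away at 32. For AE4 these numbers were 3, 1, 5, 21 and 54. A peak at 2 to 5 kb was thus the nearest one at 25.0% of ribosomal protein genes in the AE4 list, compared with 10.7% of genes of 1 to 5 kb. In the H1foo list it was 16.7%, compared with 6.27%, so a higher share was not particular to AE4.

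**Figure D2:**
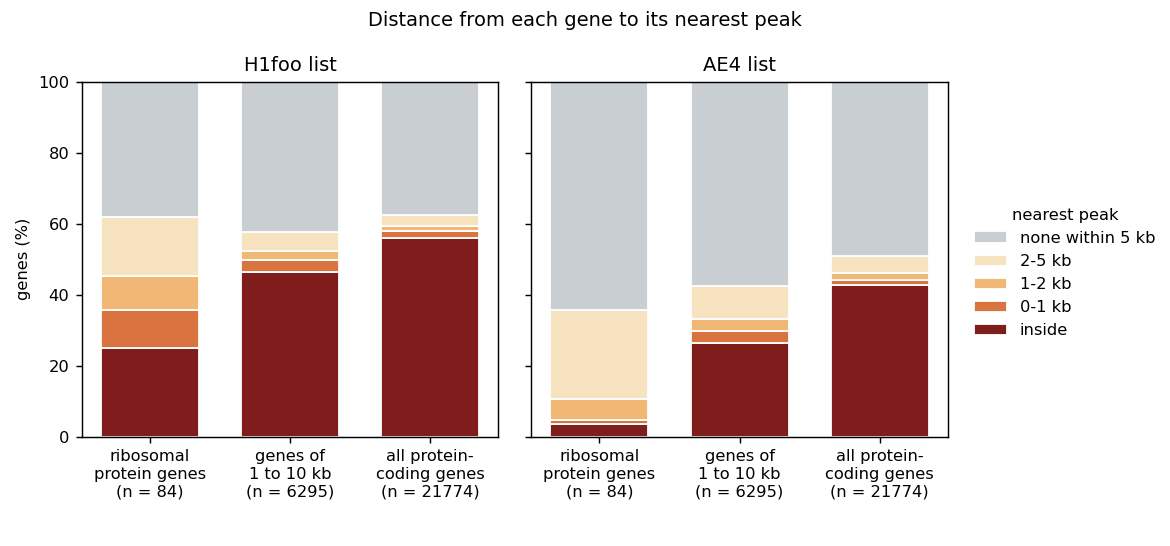
Share of genes (vertical axis, %) by the distance to their nearest H1foo peak (left) or AE4 peak (right), for ribosomal protein genes, protein-coding genes of 1 to 10 kb and all protein-coding genes. The darkest segment, a peak inside the gene, is 25.0% and 3.57% for ribosomal protein genes and 56.1% and 42.7% for all genes.

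Measured per kb, which takes gene length into account, the sequence under peaks was lower inside ribosomal protein genes and next to them than a few kb away. H1foo peaks covered 55.8 bases per kb inside the genes, 60.6 in the first kb outside, 116 at 1 to 2 kb, 164 at 2 to 5 kb and 156 at 5 to 50 kb. AE4 peaks covered 7.20 inside, 4.47, 7.41 and 54.2 in the same steps outside, and 54.1 at 5 to 50 kb. The inside value was 0.340 of that at 2 to 5 kb for H1foo and 0.133 for AE4. Genes of 1 to 10 kb went the other way, with ratios of 1.49 and 1.33, and so did genes of 1 to 5 kb, with 1.63 and 1.21. Over all protein-coding genes, most of them far longer, the ratios were 0.553 and 0.580. Without the 7 genes with the letter l, the ratios were 0.253 for H1foo and 0.0475 for AE4. The AE4 value inside ribosomal protein genes thus rested largely on Rpl3l.

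**Figure D3:**
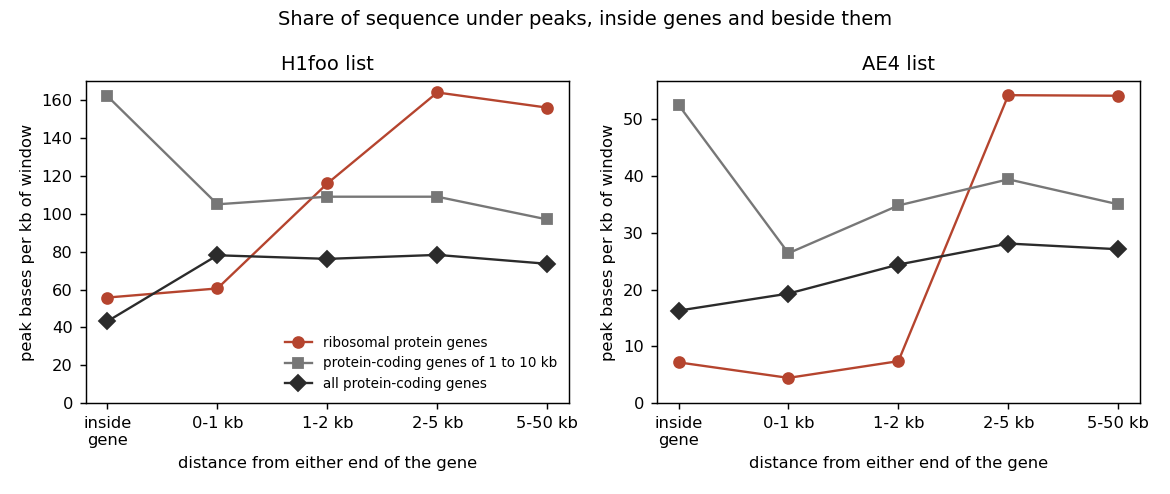
Bases under H1foo peaks (left) and AE4 peaks (right) per kb of window (vertical axes, from 0), inside genes and in 4 windows of increasing distance from either end. For ribosomal protein genes (circles) the values climb from 55.8 to 164 for H1foo and from 7.20 to 54.2 for AE4 between the gene and 2 to 5 kb outside, whereas genes of 1 to 10 kb (squares) have their highest value inside.

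The same was seen gene by gene. Among the 78 ribosomal protein genes with any H1foo peak at 5 to 50 kb, 72 (92.3%) had a lower share of bases under H1foo inside the gene than in those surroundings. The same held for 2322 of 4643 genes of 1 to 10 kb and for 53.3% of those of 1 to 5 kb. For AE4 it was 73 of 75 (97.3%), against 69.0% and 77.0%. Genes with no peak inside count as lower, which a short gene reaches easily, and these made up 57 of the 72 for H1foo and 72 of the 73 for AE4.

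Around the start site, the 64 genes with a matched window had their fewest H1foo peaks in the first kb of the transcribed part. A peak covered some of the first 500 bp at 2 genes (3.12%) and of the next 500 bp at 2 (3.12%), where 15.3% and 14.7% of 17492 protein-coding genes had one, the highest shares of their profile. Upstream, the bins from 2000 to 1000 bp before the start site were covered at 11 and 10 genes (17.2% and 15.6%), against 10.3% and 9.71% of all genes. The bin from 4500 to 5000 bp downstream, beyond the end of most of these genes, was covered at 14 (21.9% against 13.7%). AE4 had a peak in 1 gene in each of the first 3 bins downstream (1.56%) and in 0 of 64 from 1500 to 3500 bp downstream, where all genes went from 4.27% to 5.97%. AE4 was low near the start site of protein-coding genes in general, at 2.28% in the last 500 bp before it and 5.13% at 4000 to 4500 bp before it.

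**Figure D4:**
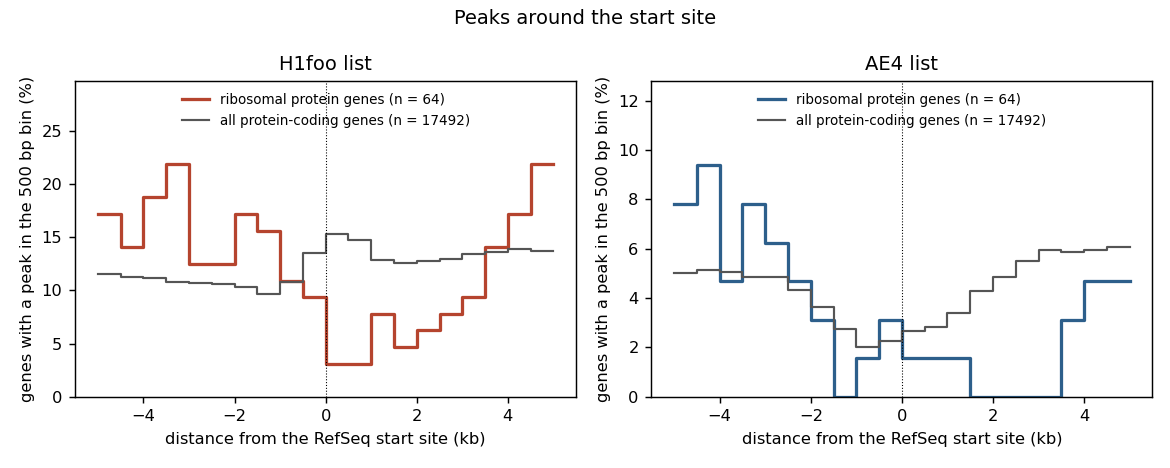
Share of genes with a peak (vertical axes, %, from 0) in bins of 500 bp by distance from the RefSeq start site (horizontal axes, kb; downstream to the right) for 64 ribosomal protein genes (coloured) and 17492 protein-coding genes (grey). H1foo falls to 3.12% in the first kb downstream while the grey line peaks at 15.3%; the bins hold 0 to 14 ribosomal protein genes each, so single steps are uneven.

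Of the small subunit genes, 6 of 32 (18.8%) had an H1foo peak inside, among them Rps2, Rps10, Rps13, Rps15 and Rpsa. Rps2, whose protein lines the messenger RNA entry of the small subunit, held an H1foo peak of score 139.1 and an AE4 peak of score 59.1 near its far end, on chromosome 17 at 24720746 to 24721357 and 24721004 to 24721366. It was the single small subunit gene with an AE4 peak inside or within 2 kb. The H1foo peaks of Rps10 (score 99.1) and Rps15 (60.0) also lay toward the far end. The peak of Rps13 (55.1) crossed the start site. The peak of Rpsa, which encodes a small subunit protein also described as a laminin receptor, had a score of 70.7.

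Large subunit genes with an H1foo peak inside were 15 of 52 (28.8%). Rpl36 had the most sequence under H1foo among those other than Rpl3l, with peaks on chromosome 17 at 56609263 to 56610662 (score 119.4, across the gene's left edge and into Micos13) and 56611111 to 56612691 (127.1), the latter 1581 bp long in a gene of 4153 bp. Rpl11, whose protein joins the particle of 5S ribosomal RNA and can bind Mdm2, had a peak of score 113.3 centred 0.751 of the way along the gene, on chromosome 4 at 136050067 to 136050650. The peaks of Rpl22 (97.4), Rpl28 (57.7) and Rpl38 (54.9) were centred at 0.753, 0.790 and 0.734. The peak of Rpl35 (89.3) crossed its downstream end and entered Wdr38, and that of Rpl8 (53.8) overlapped the gene by its left edge. Rpl18 (83.3 and 60.4), Rpl29 (55.9 and 62.4), Rpl7l1 (74.1 and 62.7) and Rpl19 (80.6 and 64.4) had 2 each. The Rpl18 peak of score 83.3 overlapped Sphk2 and lay before the RefSeq start site of Rpl18, which is 2604 bp inside the span. Both peaks of Rpl19 lay before its RefSeq start site, which is 4707 bp inside the span of the gene, so Rpl19 counts as overlapped through the part of its span before that site. Of the stalk genes, whose proteins recruit translation factors, Rplp0 had overlapping peaks of H1foo (95.9) and AE4 (52.4) near its end, on chromosome 5 at 115563093 to 115563511 and 115563109 to 115563507, and Rplp2 an H1foo peak (71.4), while Rplp1 had no peak within 4 kb and an AE4 peak of score 52.5 at 4103 bp.

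Rpl3l had more peaks inside than any other ribosomal protein gene. It held 5 of the 30 H1foo peaks and 3 of the 5 AE4 peaks that overlapped a ribosomal protein gene. Its H1foo scores were 210.4 over the start site, 51.0, 54.0, 149.2 and 79.5 toward the end, and the AE4 scores were 109.6, 50.1 and 77.0, each AE4 peak overlapping an H1foo peak. Rpl3, the gene for the corresponding protein of most tissues, had no peak of either list inside and its nearest H1foo peak at 1382 bp. The other genes with the letter l were uneven: Rpl7l1 had H1foo peaks inside and AE4 at 2288 bp, Rpl32l had an H1foo peak at 4205 bp, and Rpl10l, Rpl22l1, Rpl39l and Rps27l had no peak of either list within 5 kb. Rpl10l and Rpl39l had no H1foo peak within 50 kb.

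Where a strand was matched, genes were cut into 3 equal stretches. Of the 23 H1foo peaks overlapping these genes, 12 had their centre in the last stretch or beyond the end, 5 in the middle one and 6 in the first or before the gene. For AE4, 4 of 5 were in the last stretch, among them those of Rpl3l centred at 0.688 and 0.934 of the gene. The stretches were cut on gene spans, and at Rpl18, Rpl19 and Rps2 the start site lies 2604, 4707 and 1942 bp inside the span. The same split was not made for other genes, so a lean toward the end cannot be called particular to these. Many ribosomal protein genes host small nucleolar RNA (snoRNA) genes, which guide modification of ribosomal RNA, in their introns. The table places 59 snoRNA genes in 30 of the genes. H1foo peaks overlapped 3 of them (5.08%), Snora52 in Rplp2, Snora62 in Rpsa and Snora64 in Rps2, and AE4 peaks 0, compared with 5.04% and 2.63% of 1330 snoRNA genes. The gene table does not give exons, so peaks were not assigned to exons, introns or UTRs.

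The highest-scoring peaks near ribosomal protein genes lay outside them, mostly in a neighbouring gene. Genes were ranked by their best peak within 5 kb, 1 peak per gene, so further high peaks of the same gene are not listed. In the H1foo list the top 10 genes included Rplp2 (607.3, in Pidd1), Rpl29 (440.9, in Acy1), Rps15 (418.2, in Apc2), Rpl18 (415.1, in Sphk2), Rpl41 (387.3, in Zc3h10), Rpl8 (332.3, in Zfp647), Rpl10a (330.6, in Fance), Rpl3 (276.2, in no other protein-coding gene) and Rps18 (256.4, in Wdr46). Their distances from the ribosomal protein gene ran from 1547 bp at Rpl10a to 4559 bp at Rpl3. For AE4 the top 10 genes were Rpl10a (250.8), Rplp2 (218.4), Rpl36 (173.7), Rpl13 (166.5), Rps18 (138.1), Rpl3 (126.1), Rpl29 (121.4), Rps15 (120.6), Rpl18 (111.8) and Rpl3l (109.6). Each of these AE4 peaks overlapped an H1foo peak, and Rpl3l was the one gene of the 10 with its peak inside.

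Of 173 H1foo peaks within 5 kb of a ribosomal protein gene, 83 overlapped another protein-coding gene, as did 38 of 56 AE4 peaks. The same count was not made around other genes, so it cannot be called particular to these. Inside the genes the median score of H1foo peaks was 71.1, within 5 kb it was 83.3, and over the whole list 73.2. AE4 peaks near these genes mostly coincided with H1foo: 47 of 56 within 5 kb (83.9%) and 10 of 11 within 2 kb (90.9%) overlapped an H1foo peak. In the whole AE4 list, wherever its peaks lay, 51.2% did. The overlap of AE4 peaks near other genes was not counted, so the higher share cannot be called particular to these. Counted by gene, 26 of the 30 ribosomal protein genes with AE4 within 5 kb also had H1foo there. The same held for 1132 of 1240 genes of 1 to 5 kb and 10186 of 11109 of all protein-coding genes. Having both lists nearby was thus not particular to ribosomal protein genes. Of the H1foo peaks, 45 of 173 within 5 kb (26.0%) and 12 of 78 within 2 kb (15.4%) overlapped an AE4 peak, compared with 24.1% of that list. Whether the AE4 antibody recognises H1foo-GFP is not stated, and its part in shared peaks was not tested.

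Peaks of both lists within 2 kb were present at 8 genes (9.52%): Rpl7a, Rpl10a, Rpl12, Rpl18, Rpl22, Rplp0, Rps2 and Rpl3l. The share was 23.6% for genes of 1 to 5 kb, 31.1% for those of 1 to 10 kb and 42.2% over all protein-coding genes. At Rpl12 the AE4 peak (score 51.5) lay 361 bp upstream, in Lrsam1, and at Rpl7a (81.9) 1721 bp upstream, in Med22. Rpl22, whose protein is dispensable for most translation but needed in developing T cells, had its AE4 peak (54.4) 1197 bp downstream. Rpl23a was the one gene with AE4 within 2 kb (1851 bp, score 68.7) and no H1foo peak, there or within 5 kb.

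Peaks at a ribosomal protein gene went with peaks around it. The 21 genes with an H1foo peak inside had a median of 282 bases per kb under H1foo at 5 to 50 kb from the gene (81.1 to 555), the 17 with the nearest peak at 0 to 2 kb 205 (3.91 to 438), the 14 at 2 to 5 kb 65.6 (0 to 379) and the 32 without a peak within 5 kb 27.4 (0 to 251). The groups overlapped widely. Across the 84 genes, bases under H1foo within 5 kb and at 5 to 50 kb had a Spearman correlation of 0.762, given as a description since neighbouring windows share the regional density of peaks. The correlation was 0.449 with the number of other protein-coding genes within 50 kb and 0.123 with gene length. Rpl23 and Rps19, the latter the gene most often mutated in Diamond-Blackfan anaemia, had no peak within 5 kb although H1foo covered 251 and 221 bases per kb of their surroundings. Their nearest peaks lay just past that limit, at 5564 and 5491 bp for H1foo and at 5518 and 5527 bp for AE4. Rpl10a, in surroundings with 428 bases per kb, had 6 H1foo and 4 AE4 peaks within 5 kb and none inside.

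**Figure D5:**
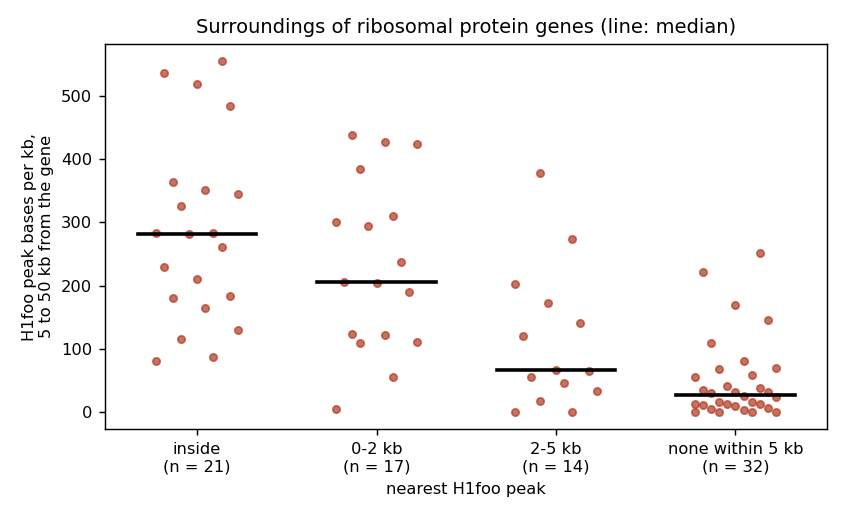
Bases under H1foo peaks per kb at 5 to 50 kb from the gene (vertical axis, from 0) for each of the 84 ribosomal protein genes (points), grouped by the distance of the nearest H1foo peak (horizontal axis); lines are medians. The medians go from 282 for genes with a peak inside to 27.4 for genes without one within 5 kb, with wide overlap between neighbouring groups.

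By position in the genome, 5 of 8 genes on chromosome 17 and 5 of 14 on chromosome 7 had an H1foo peak inside, compared with 65.5% and 55.1% of all protein-coding genes there. The other chromosomes with any of the genes hold 1 to 7 each, too few to compare. The X chromosome, which has few peaks in either list, carries 4 of the genes. Rps4x had an H1foo peak 3901 bp away (score 111.0) and no AE4 peak within 5 kb, Rpl36a an AE4 peak 3719 bp away (52.4) and no H1foo peak, and Rpl10 and Rpl39 had neither. Over all 963 protein-coding genes of X, 7.06% had an H1foo peak and 4.47% an AE4 peak inside or within 5 kb. In all, 28 of the 84 genes had no peak of either list within 5 kb. This was near the share of all protein-coding genes (7227 of 21774) and below that of genes of 1 to 5 kb (1542 of 3411). Of the 28, Rpl7, Rpl24, Rpl30, Rpl39, Rpl39l, Rps12 and Rps27l had none within 10 kb.

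Processed copies of ribosomal protein genes are common in the mouse genome and some are near-identical to the transcribed gene. Reads at the transcribed genes and at such copies may therefore be of uncertain placement, and its part in the low number of peaks was not tested. Of 318 pseudogenes named after a ribosomal protein gene (median length 531 bp), 50 overlapped an H1foo peak (15.7%) and 18 an AE4 peak (5.66%). For all 10329 pseudogenes of the table, which have a longer median of 929 bp, the shares were 10.8% and 5.35%.

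Other genes of the translation machinery were set beside these. The mitochondrial ribosomal protein genes (78, median length 7690 bp) had an H1foo peak inside at 51 (65.4%) and an AE4 peak at 26 (33.3%), and their sequence under peaks inside was 0.545 (H1foo) and 0.497 (AE4) of that at 2 to 5 kb. Of 17 further ribosome components and TOP genes, 8 had H1foo and 5 had AE4 inside, and of 28 ribosome biogenesis genes (median 14330 bp) 20 and 10. Among the components that the symbol rule leaves out, Fau, the gene for a small subunit protein fused to a ubiquitin-like one, had H1foo at 190 bp and AE4 at 3377 bp, and Rack1, a scaffold on the small subunit, had H1foo at 677 bp and AE4 at 14378 bp. The elongation factor genes Eef2 and Eef1d had peaks of both lists inside, while Eef1a1 had its nearest ones at 2643 and 2724 bp. These lists differ from the ribosomal protein genes in length, and no test of the difference was made.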

How the data were processed

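Chromatin was immunoprecipitated with the H1foo or the AE4 antibody from stem cells that overexpress H1foo-GFP, 2 libraries each. Reads were aligned with Bowtie 1.1.2 to mm10, per the submitters' processing notes, and peaks were called with MACS, per the file headers. The deposited lists hold 1 score per peak, the authors' value, at least 50 in both lists. How libraries were combined, whether an input was used, and the depth are not stated in the labels or files.

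Starts were counted from 1. Gene spans came from RefSeq (GRCm38.p6), and 126 protein-coding genes outside the assembled chromosomes were left out. At Rpl18, Rpl19, Rps2 and Rps27l the RefSeq start site lies over 1 kb inside the span. A peak counted as inside by 1 shared base, otherwise by its distance from the nearer end (0 to 1, 1 to 2, 2 to 5 kb). Counts were set beside all protein-coding genes and those of 1 to 10 kb, and, added after seeing the data, 1 to 5 kb. No test was made, because each antibody has a single list. Genes were named by rule: those with a peak inside or over the promoter window, the 10 with the highest best score within 5 kb in each list, those with both lists within 2 kb, those on X, and components such as Fau and Rack1. Some genes these rules name are not reported here. Members and lists were chosen with earlier results of these data known. Other genes named were chosen after their values were seen. Distances were tested on simulated data. Python 3.11.15, pandas 2.3.3 and SciPy 1.17.1 were used.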

Additional observations from a re-analysis of the deposited data

How the results depend on the processing

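No paired analysis was possible because the peak lists hold no values per library, and for the same reason no library could be left out. Counting peaks by their centre, or leaving out the 7 genes with the letter l, kept the 6 counts of genes within 1.5 times their value. Both stricter overlaps did so for the shared peaks. Scores of at least 75 left an H1foo peak inside 10 genes and within 2 kb of 24, an AE4 peak inside 1, within 2 kb of 4 and within 5 kb of 17, and 23 shared H1foo peaks. Scores of at least 100 left H1foo at 4, 16 and 34 genes (inside, within 2 kb, within 5 kb), AE4 at 1, 2 and 12, and 14 shared peaks. Fewer peaks enter at these scores, and the share of all protein-coding genes with a peak inside went to 40.6% and 30.2% for H1foo and 22.9% and 12.4% for AE4. Within 2 kb these shares were 43.4% and 32.8% for H1foo and 25.1% and 13.8% for AE4. Within 5 kb they were 46.6% and 35.6%, and 28.7% and 16.2%. H1foo within 5 kb, at 40 and 34 of the 84 genes, was thus not below the share of all genes. The ratio of bases under peaks inside the genes to 2 to 5 kb outside, with alternatives chosen after seeing the data, was 0.171 for H1foo and 0.0492 for AE4 at scores of at least 100, where genes of 1 to 10 kb had 1.59 and 1.42. For AE4 it was 0.0475 without the genes with the letter l. It was 0.229 for AE4 when genes began at the RefSeq start site (64 genes, 0.195 for their whole spans). These AE4 values rest on 1 to 3 genes with a peak inside. None of these settings brought a ratio of the ribosomal protein genes above 1.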
